A study of Mus musculus with 4 samples.

Results

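The genes described here encode the heat shock protein and DnaJ chaperones of the mouse, compared between epiblast-like tissue at day 3 and embryonic stem cells at day 0 of an aggregation culture. Members were all genes whose array symbol begins with Hsp90, with Hspa, Hspb, Hspd, Hspe or Hsph and a digit, with Hspb and other letters, or with Dnaja, Dnajb or Dnajc. This gave 72 of the 18194 genes with a probe set of 1 gene symbol. Dnajc19 was left out because its 3 probe sets carry a second symbol, and Hsp90ab1 was not analysed here. Biotin-labelled RNA was hybridised to 4 Affymetrix arrays. The day 3 group had 2 samples of epiblast-like tissue and the day 0 group 2 samples of embryonic stem cells, both from differentiation by SFEBq, in which dissociated cells quickly form floating aggregates in serum-free medium. The labels used here give no strain, genotype or added agent. They call the samples duplicates and do not say that these were separate cultures. Each p-value thus measures spread between these arrays, drawn in part from other genes of like signal, and that spread can be technical. Effects of time, of differentiation and of the culture cannot be told apart.

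Chaperones bind unfolded protein and keep it from aggregating. Members of the HSP70 family do this in cycles of ATP binding and hydrolysis, J-domain (DNAJ) proteins bring them their clients and stimulate the hydrolysis, and exchange factors, among them the HSP110 proteins, reset the cycle. HSP90 acts on folded kinases and receptors, chaperonin 60 with its lid chaperonin 10 folds proteins inside mitochondria, and small heat shock proteins hold unfolding clients without ATP. Heat and other stresses induce many of these genes through heat shock factor 1, which binds repeats of the letters GAA and TTC, while an overload of the endoplasmic reticulum (ER) induces others through a CCAAT element followed at a fixed distance by CCACG. Mouse embryonic stem cells are known for abundant chaperone transcripts.

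Promoter sequence was shown for 7 members that carry these elements. The first 4 are a selection from the 9 called lower among 16 members with a heat shock element. The 1 called higher and the 6 not called are not shown. At day 3 the first 4 of the genes were called lower, Hsp90b1 and Dnajc3 higher, and Hspa5 was not called. The 250 bases before the start site are given in lower case for the strand of the gene, from RefSeq on GRCm38.p6. In the first 4 sequences capitals mark GAANNTTC or TTCNNGAA, called here a two-unit heat shock element, and joined stretches of capitals mark overlapping units. Hspb1 (chr5:135887669-135887918, plus strand) and Hspa1b (chr17:34959239-34959488, minus strand) had the largest falls among the small heat shock protein genes and the HSP70 genes. Hspe1 (chr1:55087898-55088147, plus strand) shares its promoter region with Hspd1, and Dnajb6 (chr5:29735648-29735897, plus strand) encodes a J-domain protein that fell. In the last 3 sequences capitals mark CCAAT, 9 bases and CCACG, or its reverse complement, in Hsp90b1 (chr10:86705445-86705694, minus strand), Dnajc3 (chr14:118937682-118937931, plus strand) and Hspa5 (chr2:34771840-34772089, plus strand), which encode chaperones of the ER.
Hspb1: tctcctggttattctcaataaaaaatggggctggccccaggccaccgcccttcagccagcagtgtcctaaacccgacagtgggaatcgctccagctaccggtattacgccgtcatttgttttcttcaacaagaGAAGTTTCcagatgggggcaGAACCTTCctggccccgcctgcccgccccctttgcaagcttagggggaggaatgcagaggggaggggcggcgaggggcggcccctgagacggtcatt
Hspa1b: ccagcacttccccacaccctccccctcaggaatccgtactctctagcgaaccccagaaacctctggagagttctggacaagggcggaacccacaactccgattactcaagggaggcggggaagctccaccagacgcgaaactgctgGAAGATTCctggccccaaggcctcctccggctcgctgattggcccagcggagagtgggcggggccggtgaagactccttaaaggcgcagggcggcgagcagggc
Hspe1: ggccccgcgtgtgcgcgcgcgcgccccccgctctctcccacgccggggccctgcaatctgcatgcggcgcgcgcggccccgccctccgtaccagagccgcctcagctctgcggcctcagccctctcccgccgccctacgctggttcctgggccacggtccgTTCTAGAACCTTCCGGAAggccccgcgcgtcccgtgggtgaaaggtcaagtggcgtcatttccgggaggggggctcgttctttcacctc
Dnajb6: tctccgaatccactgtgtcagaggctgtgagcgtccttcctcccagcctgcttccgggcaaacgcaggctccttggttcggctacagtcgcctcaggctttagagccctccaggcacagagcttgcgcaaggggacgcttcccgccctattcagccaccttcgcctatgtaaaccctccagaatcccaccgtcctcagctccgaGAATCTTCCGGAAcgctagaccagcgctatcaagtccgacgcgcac
Hsp90b1: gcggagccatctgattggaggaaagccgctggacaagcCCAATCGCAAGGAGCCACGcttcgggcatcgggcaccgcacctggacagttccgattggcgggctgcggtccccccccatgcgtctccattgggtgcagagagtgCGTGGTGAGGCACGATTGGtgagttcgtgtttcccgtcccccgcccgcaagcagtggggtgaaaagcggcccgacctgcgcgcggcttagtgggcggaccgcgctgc
Dnajc3: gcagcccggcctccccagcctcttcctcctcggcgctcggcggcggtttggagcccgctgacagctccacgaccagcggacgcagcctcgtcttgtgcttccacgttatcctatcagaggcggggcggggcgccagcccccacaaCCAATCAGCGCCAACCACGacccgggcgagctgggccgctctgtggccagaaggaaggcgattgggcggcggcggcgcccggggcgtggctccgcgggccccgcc
Hspa5: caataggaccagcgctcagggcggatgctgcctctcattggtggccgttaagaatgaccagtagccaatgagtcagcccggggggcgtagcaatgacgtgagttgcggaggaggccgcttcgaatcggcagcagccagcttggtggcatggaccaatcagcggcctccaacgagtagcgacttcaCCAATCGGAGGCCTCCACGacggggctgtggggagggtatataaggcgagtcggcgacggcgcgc

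Marker genes of the labelled states were read from lists chosen with earlier results of these data known. Their counts are therefore no independent check of the labels. All 11 formative and primed epiblast genes were called higher at day 3 and all 12 naive pluripotency genes lower, with median log2 differences of 3.87 and -2.63. Of 14 visceral endoderm genes 12 were called higher and 0 lower (limma, and 12 and 0 at an unadjusted p under 0.05), with a median of 2.23. The summed linear signal of that list was 22655 and 25168 on the day 3 arrays, against 2695 and 2466 on the day 0 arrays, and Cer1 and Gata6 were not called. Without day 0 replicate 2, 1 gene of the list was called lower. Of 10 germ cell genes 1 was called higher and 8 lower. The summed signal of the germ cell list was 5305 and 5193 at day 3, against 7728 and 7502 at day 0. The gene called higher was Sycp3, of meiotic chromosomes, and without it the sums were 1132 and 978 at day 3, against 6919 and 6769 at day 0. Of 12 fibroblast genes Thy1, Col1a2, Dcn and Pdgfra were called higher and Vim, Tagln and Acta2 lower, and the list summed to 2023 and 2255 at day 3, against 7640 and 6648 at day 0. Most of that day 0 signal was Vim, a gene of the cytoskeleton in many cell types, and without it the sums were 1473 and 1693 at day 3, against 1235 and 1094 at day 0. The collagen genes Col1a1 and Col3a1 stayed below the arrays' median on both days. The part of visceral endoderm, fibroblast or germ cells in the chaperone values that follow was not tested. In bulk RNA, fewer cells of a type and less RNA per cell cannot be told apart.

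Among the 72 genes, 14 were called higher at day 3, 22 were called lower and 36 were not called (limma, adjusted p under 0.05 over all 18194 genes). Over all genes the shares called were 20.9% higher and 21.4% lower, 42.3% in all, and brighter genes were called more often. Without day 3 replicate 2 the count of higher members was 9 and that of lower members 16. Of 50 members above the median gene's level 30 were called, 10 higher and 20 lower. Of all genes above it 29% were called higher and 33.7% lower, 62.8% in all. The share of called chaperone genes was thus near the background. The median difference of the 72 members was -0.04, against 0.01 for all genes. The differences were mostly small. A difference of at least 0.5 on the log2 scale was called for 7 members upward and 12 downward, beside 12.9% and 11.2% of all genes. At least 2-fold changes were called for 1 member upward and 5 downward, beside 5.93% and 4.25% of all genes. The duplicates of a member lay a median of 0.08 apart at day 3 and 0.09 at day 0, against a median absolute difference of 0.21 between days. With 2 arrays a day, values that do not overlap say little alone. Members not called, such as Hspa8 and Dnaja1, also had them, and their share over all genes was not counted.

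**Figure D1:**
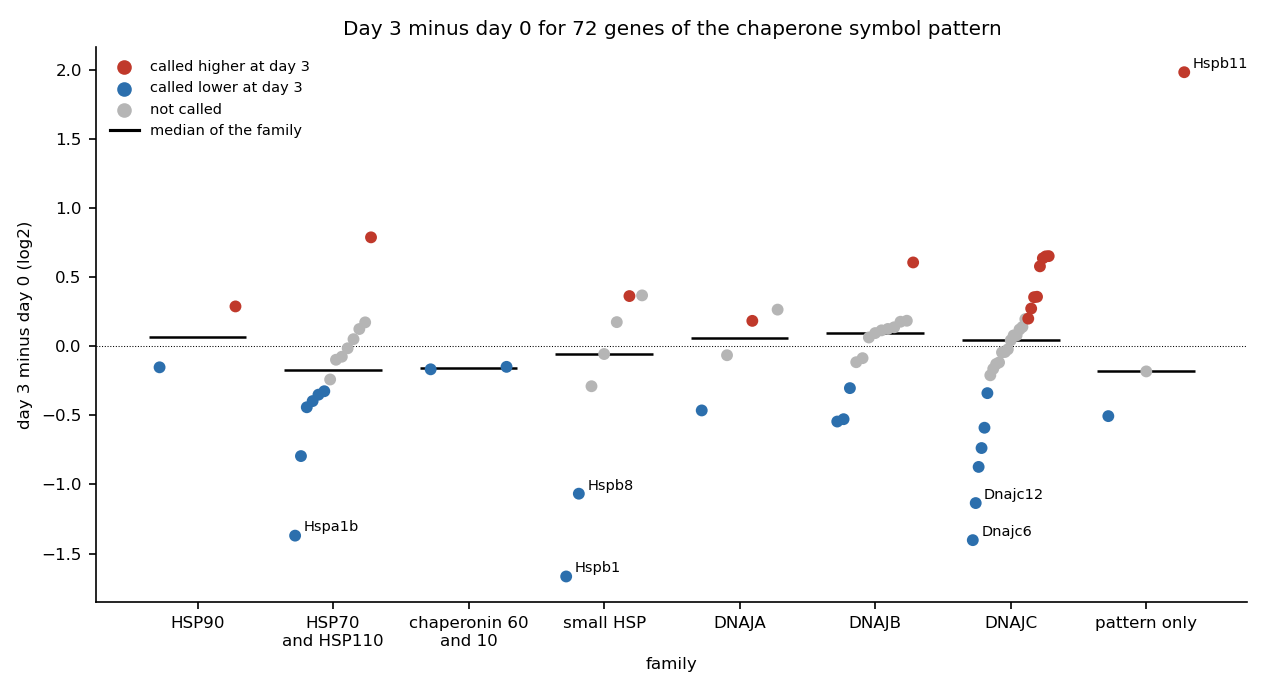
Each point is one of 72 genes, placed by family (x axis) and by its log2 difference, day 3 minus day 0 (y axis). Red points were called higher, blue points lower and grey points not called, and a black line marks the median of a family. The large changes are few, from -1.67 for Hspb1 to 1.98 for Hspb11, and each larger family holds genes called in both directions.

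Small heat shock proteins held the largest fall. Hspb1, whose product is the main small heat shock protein of many cells, had log2 signals of 12.43 and 12.50 on the day 3 arrays, against 14.05 and 14.21 on the day 0 arrays. The days did not overlap, and the gene fell by 1.67 ± 0.06 (SE) on the log2 scale, 3.17-fold (limma, adjusted p = 7.4e-09). Another probe set of Hspb1 gave -1.84. Hspb8, whose product works with the co-chaperone Bag3 in clearing misfolded protein, had 6.93 and 6.89 at day 3, against 8.09 and 7.85 at day 0. Its fall was 1.07 ± 0.11 (adjusted p = 1.7e-05), while its other 2 probe sets, with differences of -0.27 and -0.09, were not called. Hspb2, a muscle small heat shock protein gene, was the member of this family called higher, by 0.36 ± 0.10 (adjusted p = 0.015). It had 7.03 and 6.99 at day 3, against 6.64 and 6.66 at day 0, and lost its call without day 3 replicate 1 (0.34, adjusted p = 0.10) or without day 3 replicate 2 (0.38, adjusted p = 0.072). The other 4 genes, Hspb3, Hspb6, Hspb7 and Hspb9, were not called and lay below the arrays' median on all 4 arrays.

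Of 14 HSP70 and HSP110 genes 6 fell, 1 rose and 7 were not called at day 3, beside 21.4% of all genes called lower and 20.9% higher. Their median difference was -0.17, and 8 of the 14 lay above the median gene's level, where 33.7% of all genes were called lower. Hspa1b, one of the neighbouring stress-inducible HSP70 genes of chromosome 17, had 8.15 and 8.21 at day 3, against 9.41 and 9.69 at day 0. It fell by 1.37 ± 0.10 (SE, adjusted p = 1.2e-06), and its other 2 probe sets had differences of -1.42 and -1.50. Its near copy Hspa1a had 6.25 and 6.24 at day 3, against 7.14 and 6.95 at day 0, a fall of 0.79 ± 0.11 (adjusted p = 2.0e-04). All 4 probe sets of these neighbours were lower at day 3 with no overlap. The copies are near-identical and can share probes, so the split between them is uncertain. Their promoter windows had the same letter at 296 of 300 places (98.7%).

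By the probe set kept, the other HSP70 genes moved less than Hspa1b and Hspa1a. Hspa8, which encodes the main HSP70 of unstressed cytosol, had 14.42 and 14.30 at day 3, against 14.49 and 14.43 at day 0, and was not called (-0.10 ± 0.05, adjusted p = 0.15). Its 3 other probe sets were called lower, with differences of -0.18, -0.24 and, for the dimmest, -1.44. Hspa5, encoding BiP, the HSP70 of the ER, had 13.22 and 13.32 at day 3, against 13.26 and 13.32 at day 0. Those values overlap, and the difference of -0.01 ± 0.05 was not called (adjusted p = 0.87). Hspa9, encoding the HSP70 of mitochondria, had 12.19 and 12.18 at day 3, against 12.50 and 12.67 at day 0, and fell by 0.40 ± 0.06 (adjusted p = 4.0e-04). Hspa14, whose product works at ribosomes, fell by 0.33 ± 0.09 (adjusted p = 0.013). That call was lost without day 3 replicate 1 (-0.25) or without day 0 replicate 2 (-0.19). It was also lost in the limma fit with no intensity trend (adjusted p = 0.072). Hspa2, Hspa12a, Hspa12b, Hspa13 and Hspa1l were not called, with differences between -0.24 and 0.17.

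The HSP110 genes, which encode exchange factors of HSP70, split. Hspa4 had 12.87 and 12.80 at day 3, against 13.21 and 13.34 at day 0, and all 4 of its probe sets were called lower. Hsph1 had 11.51 and 11.49 at day 3, against 11.78 and 11.93 at day 0, and fell by 0.35 ± 0.06 (adjusted p = 9.2e-04). Hspa4l had 7.21 and 7.21 at day 3, against 6.38 and 6.46 at day 0. It was the HSP70-related gene that rose, by 0.79 ± 0.10 (SE, adjusted p = 1.1e-04).

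Of the 2 HSP90 genes measured here, Hsp90aa1 was called lower and Hsp90b1 higher, while Hsp90ab1 was not analysed. Hsp90aa1, encoding the stress-inducible HSP90 of the cytosol, had 14.15 and 14.04 at day 3, against 14.24 and 14.26 at day 0, a fall of 0.15 ± 0.05 (SE, adjusted p = 0.029). Its call was lost without day 3 replicate 2 (-0.09) or without day 0 replicate 2 (-0.14). It was also lost in the limma fit with no intensity trend (adjusted p = 0.21). Of its 4 other probe sets 3 were called lower, with differences of -0.37, -0.43 and -0.55. Hsp90b1, encoding Grp94, the HSP90 of the ER, had 13.11 and 13.06 at day 3, against 12.80 and 12.80 at day 0. It rose by 0.29 ± 0.05 (adjusted p = 6.0e-04), and its other probe set by 0.49. In neither gene did the days overlap. Trap1, encoding the mitochondrial HSP90 and outside the symbol pattern, had 10.48 and 10.47 at day 3, against 10.62 and 10.80 at day 0. Its difference was -0.24 ± 0.07 (adjusted p = 0.021), and it was not called without day 3 replicate 1 (-0.24), day 3 replicate 2 (-0.23) or day 0 replicate 2 (-0.15), with adjusted p-values of 0.12 to 0.14.

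The chaperonin pair Hspd1 and Hspe1 changed little. Hspd1 had 13.74 and 13.74 at day 3, against 13.89 and 13.92 at day 0, and Hspe1 had 13.64 and 13.70 at day 3, against 13.85 and 13.79 at day 0. Their falls of 0.17 ± 0.04 (adjusted p = 0.010) and 0.15 ± 0.05 (adjusted p = 0.025) were, with that of Hsp90aa1, the smallest falls called among the 72 genes. Hspd1 lost its call without day 3 replicate 1 (-0.16), day 3 replicate 2 (-0.17) or day 0 replicate 2 (-0.15). Hspe1 lost its call without day 3 replicate 1, day 3 replicate 2 or day 0 replicate 1, with differences of -0.12, -0.18 and -0.12. Both genes also lost the call in the limma fit with no intensity trend (adjusted p = 0.149 and 0.205).

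Of 44 J-domain genes 10 were called higher (22.7%), 10 lower (22.7%) and 24 were not called, shares near the 20.9% and 21.4% of all genes. Without day 3 replicate 1 or without day 3 replicate 2 the count called higher was 6. Their median difference was 0.07. The largest fall was that of Dnajc6, encoding auxilin, which recruits HSP70 to strip clathrin from vesicles. It had 8.12 and 8.15 at day 3, against 9.57 and 9.50 at day 0, and fell 2.64-fold, with an SE of 0.08 on the log2 scale (adjusted p = 1.5e-07). Dnajc12, encoding a co-chaperone of the aromatic amino acid hydroxylases, had 7.59 and 7.65 at day 3, against 8.88 and 8.63 at day 0. Its fall was 1.13 ± 0.10 (adjusted p = 5.9e-06). Both genes were more than 2-fold lower, and in neither did the days overlap.

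Other falls touched J-domain proteins of the cytosol, ribosome assembly and mitochondria. Dnajc21, whose product acts in ribosome assembly, had 10.80 and 10.55 at day 3, against 11.36 and 11.74 at day 0. Dnajc7, encoding a protein that binds both HSP70 and HSP90, had 11.31 and 11.41 at day 3, against 11.93 and 11.97 at day 0. Dnajb6, encoding a suppressor of protein aggregation, had 11.98 and 11.93 at day 3, against 12.50 and 12.47 at day 0. All 4 probe sets of Dnajb6 were called lower, by 0.46 to 0.84. Dnajc4 had 7.66 and 7.68 at day 3, against 8.32 and 8.49 at day 0. Dnaja3, encoding a mitochondrial J-domain protein, had 9.65 and 9.74 at day 3, against 10.16 and 10.17 at day 0. The log2 differences were -0.87 for Dnajc21, -0.59 for Dnajc7, -0.53 for Dnajb6, -0.74 for Dnajc4 and -0.46 for Dnaja3, with adjusted p-values of at most 2.4e-04. Dnajb13, encoding a protein of flagella, had 5.33 and 5.20 at day 3, against 5.96 and 5.66 at day 0, near the arrays' median, and its difference of -0.54 was not called without day 3 replicate 2 or without day 0 replicate 1 (-0.48 and -0.39). Smaller falls were called for Dnajb4 (-0.30) and for Dnajc11 (-0.34), a gene of the mitochondrial membranes. Dnajb4 lost the call without day 3 replicate 1 (-0.34), day 3 replicate 2 (-0.26) or day 0 replicate 1 (-0.24). Dnajc11 lost the call without day 3 replicate 1 (-0.31) or day 3 replicate 2 (-0.37). Another probe set of Dnajc11 above the arrays' median had a difference of 0.06 and was not called. From the mean of probe sets neither Dnajb4 (-0.09) nor Dnajc11 (-0.09) was called.

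Of the J-domain genes of the ER, Dnajc10 and Dnajc3 were called higher, while Dnajb9, Dnajb11, Dnajb12, Dnajb14, Dnajc1, Dnajc16 and Dnajc25 were not called. Dnajc10, whose product reduces disulfide bonds of misfolded proteins in the ER, had 10.75 and 10.74 at day 3, against 10.08 and 10.11 at day 0. It rose by 0.65 ± 0.06 (SE, adjusted p = 9.9e-06), and all 3 of its probe sets were called, at 0.59 to 0.68. Dnajc3, encoding an ER co-chaperone of BiP known as p58IPK, had 10.16 and 10.28 at day 3, against 9.73 and 9.56 at day 0. Its rise was 0.58 ± 0.08 (adjusted p = 1.7e-04), with all 5 probe sets called between 0.39 and 0.74. Dnajc28, counted here as mitochondrial and not as an ER gene, had 6.89 and 6.73 at day 3, against 6.18 and 6.13 at day 0. Its rise was 0.65, and a second, dimmer probe set had a difference of -0.02 that was not called.

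Dnajc22, a gene whose fly counterpart acts in endocytosis, had the widest gap between probe sets above the arrays' median. The probe set with the highest mean had 7.94 and 7.90 at day 3, against 7.14 and 7.43 at day 0, a rise of 0.64 ± 0.11 (SE, adjusted p = 8.7e-04). The other had 8.39 and 8.37 at day 3, against 5.53 and 6.15 at day 0, a rise of 2.54, which was the largest of all 174 member probe sets. Both were called, and in neither did the days overlap. Dnajb3, a gene known from testis, had 4.84 and 5.04 at day 3, against 4.10 and 4.57 at day 0, below the arrays' median throughout. Its difference of 0.61 was not called without day 3 replicate 1 (0.71), day 3 replicate 2 (0.50) or day 0 replicate 1 (0.37).

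Smaller rises were called for Dnajc5, encoding the cysteine string protein of vesicles (0.36), for Dnajc9, encoding a chaperone of histones (0.35), and for Dnajc14 (0.27). They were also called for Dnajc13, encoding a protein of endosomes (0.20), and for Dnaja2, a cytosolic partner of HSP70 (0.18). Dnajc14 lost its call without day 3 replicate 1 (0.28) or day 3 replicate 2 (0.27). Dnaja2 lost its call without day 3 replicate 1 (0.21), day 3 replicate 2 (0.16) or day 0 replicate 1 (0.13). Dnajc13 lost its call without the same arrays (0.19, 0.21 and 0.15). In the fit with no intensity trend neither of them was called. Other probe sets of Dnaja2, Dnajc14 and Dnajc13 above the arrays' median were not called. Their differences were 0.08 and -0.08 for Dnaja2, 0.07 and -0.15 for Dnajc14, and -0.14 for Dnajc13. From the mean of probe sets Dnaja2, Dnajc14 and Dnajc13 were not called (0.002, 0.06 and 0.03). Dnajb1 and Dnaja1, the main heat-induced J-domain partners of cytosolic HSP70, were not called. Dnajb1 had 10.66 and 10.87 at day 3, against 10.63 and 10.67 at day 0, and Dnaja1 had 12.86 and 12.92 at day 3, against 12.94 and 12.97 at day 0. Dnaja4 had 5.90 and 6.07 at day 3, against 5.68 and 5.75 at day 0, and its difference of 0.26 was not called. The differences of Dnajb9 and Dnajb11, ER genes whose products work with BiP, were 0.10 and 0.06.

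**Figure D2:**
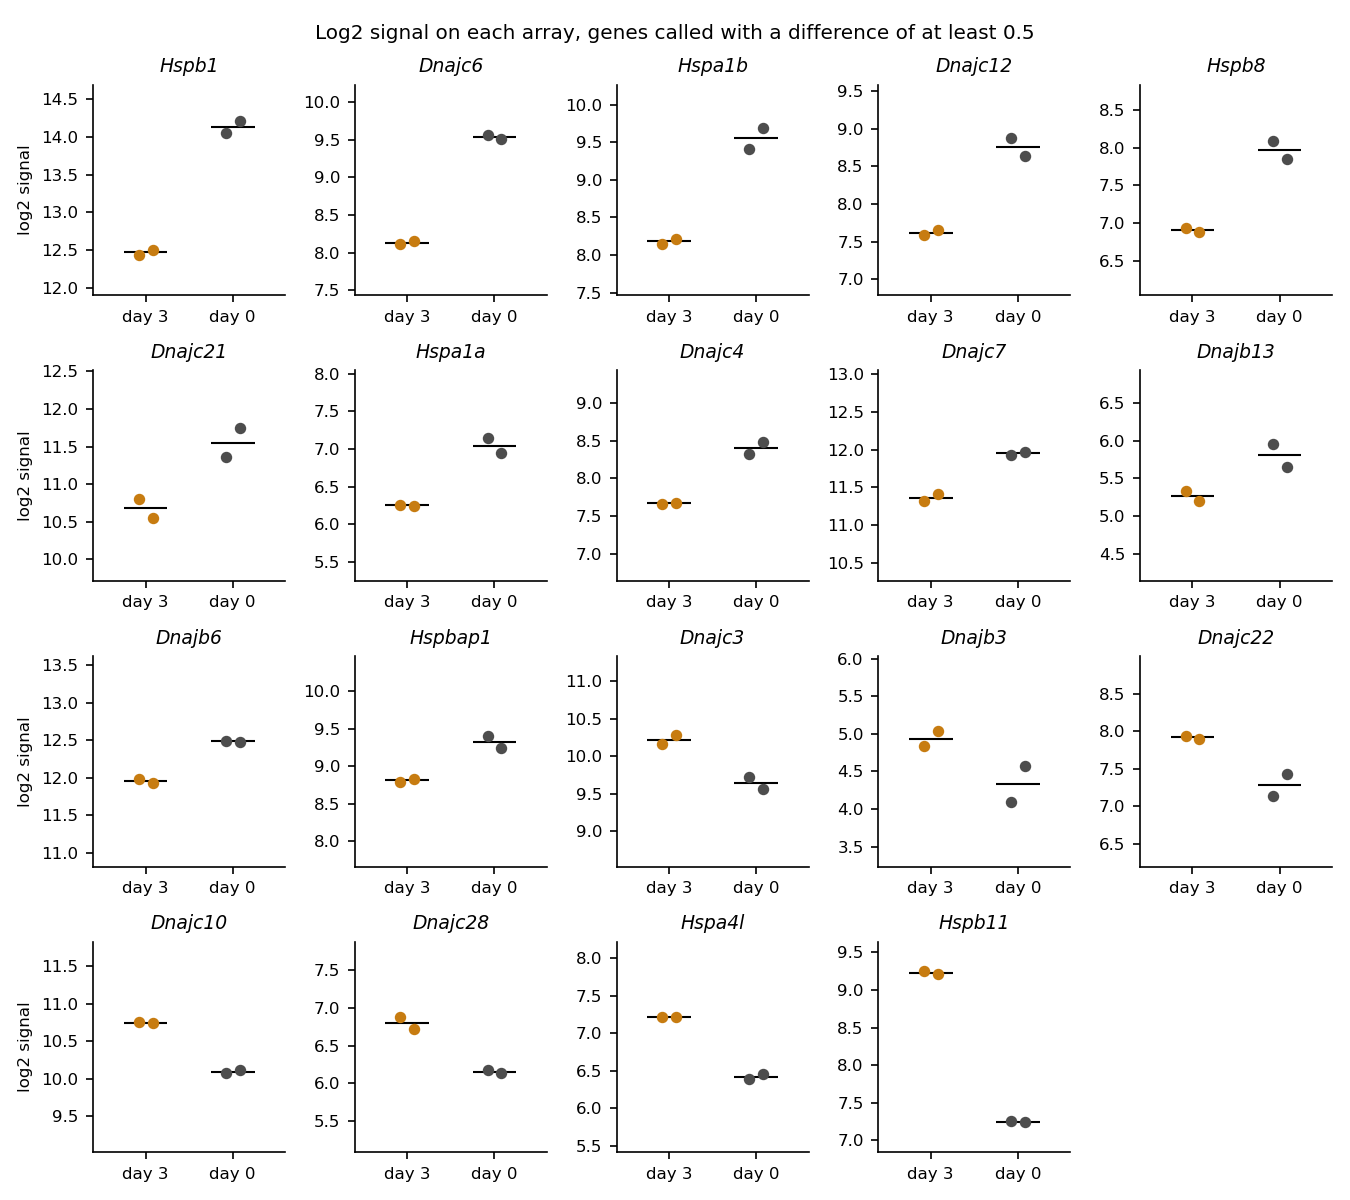
Log2 signal (y axis) on each of 4 arrays for the 19 genes called with a difference of at least 0.5, with day 3 left and day 0 right and a line at the mean of each day. All panels span the same height of log2 units, from Hspb1 with the largest fall to Hspb11 with the largest rise. The days overlap in no panel, as is likely for genes selected by a called difference of this size.

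The symbol pattern also took in 3 genes that encode no member of these families. Hspb11, named for a likeness to small heat shock proteins and known as Ift25, a subunit of the intraflagellar transport complex, rose most of all 72 genes. It had 9.25 and 9.21 at day 3, against 7.25 and 7.25 at day 0, a rise of 1.98 ± 0.08 (SE, adjusted p = 2.1e-08), while its dimmer second probe set had a difference of 0.07 and was not called. Hspbap1, named for an association with Hspb1, had 8.79 and 8.83 at day 3, against 9.40 and 9.24 at day 0, and fell by 0.51 ± 0.08 (adjusted p = 4.9e-04). Hspbp1, encoding an exchange factor of HSP70, was not called (-0.18 ± 0.07, adjusted p = 0.063). Without these 3 genes the counts were 13 higher, 21 lower and 35 not called of 69.

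In 38 members with at least 2 probe sets above the arrays' median, 0 genes had bright probe sets called in both directions in the limma fit over all probe sets. The sign still differed between bright probe sets of Dnaja2, Dnajc5, Dnajc11, Dnajc13, Dnajc14, Dnajc17, Hsp90aa1, Hspa5 and Hspa13. The range was -0.08 to 0.18 for Dnaja2 and -0.34 to 0.06 for Dnajc11. For Dnajc13 it was -0.14 to 0.20 and for Dnajc14 -0.15 to 0.27. The size ranged widely for Hspa8, from -0.10 to -1.44, for Hspb8, from -0.09 to -1.07, and for Dnajc22, from 0.64 to 2.54. It was close for Hspa1b, from -1.37 to -1.50, and for Hspb1, at -1.67 and -1.84.

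**Figure D3:**
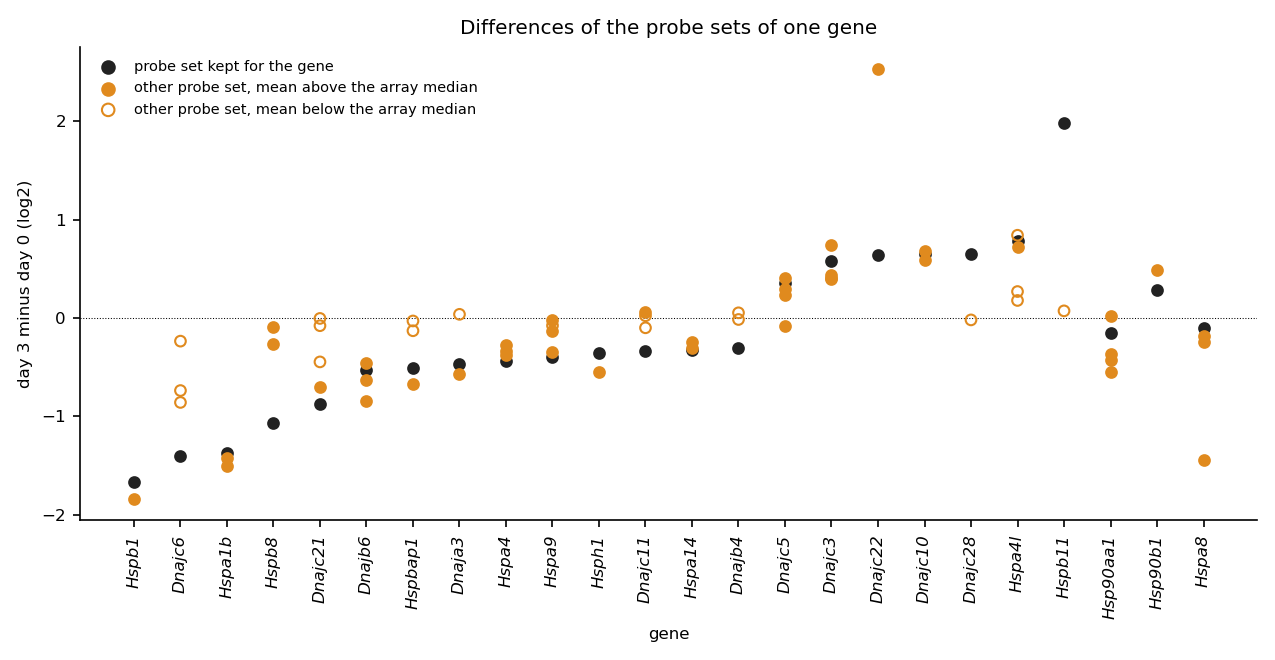
Log2 difference, day 3 minus day 0 (y axis), of each probe set of the members named on the x axis. Black points are the probe sets kept, orange points the others, open where their mean lay below the arrays' median. Filled points of a gene mostly lie close together, and those of Hspa8, Hspb8 and Dnajc22 lie far apart. Filled points of Dnajc5, Dnajc11 and Hsp90aa1 include both signs. Dnaja2, Dnajc13 and Dnajc14 are not shown.

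The members were also counted by where the proteins act and whether heat induces them. Of 12 members known to be induced by heat, 8 were called lower, 1 higher (Hspa4l) and 3 were not called. The 8 were Hspa1a, Hspa1b, Hsph1, Hspb1, Hspb8, Hsp90aa1, Hspd1 and Hspe1, and the 3 were Hspa8, Dnaja1 and Dnajb1. Over all genes 21.4% were called lower, and 33.7% of those above the median gene's level, where 10 of the 12 lay. The median difference of the 12 was -0.16. The count called lower was 5 without day 3 replicate 2 and 5 without the intensity trend. The summed linear signal was 84726 and 82949 on the day 3 arrays, against 103266 and 105231 on the day 0 arrays, and without Hspb1 it was 79204 and 77155 at day 3, against 86297 and 86263 at day 0. Of 9 measured mitochondrial members 6 were called lower and 1 higher (Dnajc28), with a median of -0.21. Above the median gene's level lay 8 of the 9. Hspd1 and Hspe1 are in this group and the heat-induced one. The count called lower was 3 without day 3 replicate 1 and 3 without day 3 replicate 2. Of 12 ER members 3 were called higher, namely Dnajc10, Dnajc3 and Hsp90b1, and 0 lower (limma, also 0 lower at an unadjusted p under 0.05), with a median of 0.11. That is 25% called higher, near the 20.9% of all genes. The differences between these groups were not tested.

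Partners outside the pattern were counted by role, and differences between their lists were not tested. Over all genes 20.9% were called higher and 21.4% lower, and above the median gene's level 29% and 33.7%. That level was passed by 17 of the 18 co-chaperones of HSP90 and all 13 exchange factors and related partners of HSP70. Of 18 measured co-chaperones of HSP90, 8 were called lower and 1 higher, with a median of -0.15, and 3 were lower without day 3 replicate 1 and 4 without day 3 replicate 2. The largest falls were those of Cdc37l1, related to the kinase co-chaperone Cdc37 (-0.77), Ttc4 (-0.38) and Chordc1 (-0.37). Of 13 exchange factors and related partners of HSP70, 7 were called higher and 4 lower, with a median of 0.32. From the mean of probe sets 4 were called higher and 4 lower, and with no intensity trend 7 higher and 2 lower. Bag2 had 8.91 and 8.93 at day 3, against 6.77 and 7.07 at day 0, a 4.01-fold rise with an SE of 0.11 on the log2 scale (adjusted p = 1.4e-07). Bag3, itself induced by heat shock and a partner of Hspb8, had 10.31 and 10.32 at day 3, against 9.22 and 9.05 at day 0, a rise of 1.19 ± 0.08 (adjusted p = 5.1e-07). The direction of Bag3 was thus opposite to that of Hspb8 and Hspb1 on the same arrays. Sil1, an exchange factor of BiP, rose by 0.59 (adjusted p = 6.0e-04), and Hyou1, the HSP110 of the ER, was not called (-0.10). Sil1 and Hyou1 also stand on the ER list and Grpel1 and Grpel2 on the mitochondrial list, so the partner lists hold 86 different genes.

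Few genes of the cytosolic chaperonin, which folds actin and tubulin, were called. Of 15 genes of chaperonin and prefoldin, its delivery complex, 11 were not called, 3 were lower and 1 was higher. Over all genes 20.9% were called higher and 21.4% lower. Above the median gene's level, where 29% of all genes were called higher and 33.7% lower, lay 14 of the 15. The median of the 15 was -0.05. The called ones included Cct6b (-1.84), a subunit known from testis, and the prefoldin genes Vbp1 (0.72) and Pfdn1 (-0.38). Of 17 genes of mitochondrial proteases and import 11 were called lower and 3 higher, with a median of -0.24, and 6 were lower without day 3 replicate 1 and 7 without day 3 replicate 2. All 17 lay above the median gene's level, where 33.7% of all genes were called lower and 29% higher. The largest falls were those of the protease genes Clpp (-0.84), Yme1l1 (-0.59) and Afg3l2 (-0.49). Of 22 measured genes of ER folding and the unfolded protein response 8 were called higher and 5 lower, with a median of -0.01. All 22 lay above the median gene's level. Without day 3 replicate 2, 5 were called higher, and without day 3 replicate 1, 3 were called lower. Among them Herpud1, a gene of ER-associated degradation, rose by 0.996, while Xbp1, encoding a transcription factor of that response, fell by 0.95 and Creld2 by 0.74.

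Of the factors that switch on heat shock genes, Hsf1 was not analysed here. Hsf2, encoding a related factor active in development, had 8.80 and 8.65 at day 3, against 8.51 and 8.34 at day 0. Its rise of 0.30 ± 0.09 (SE, adjusted p = 0.026) was not called without day 3 replicate 1 (0.22), day 3 replicate 2 (0.37) or day 0 replicate 2 (0.21). Hsbp1, a heat shock factor binding protein gene, had a difference of 0.19 (adjusted p = 0.027), lost without day 3 replicate 2 (0.14) or day 0 replicate 1 (0.16). In the fit with no intensity trend neither Hsf2 nor Hsbp1 was called. Hsf2bp, whose product binds Hsf2 and acts in meiosis, had 8.77 and 8.87 at day 3, against 10.70 and 10.70 at day 0, a 3.67-fold fall (adjusted p = 9.5e-09). Hsf4 and Hsf5 were not called. Of the 5 measured genes of this list, 2 were called higher, 1 lower and 2 were not called. Over all genes 20.9% were called higher and 21.4% lower.

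**Figure D4:**
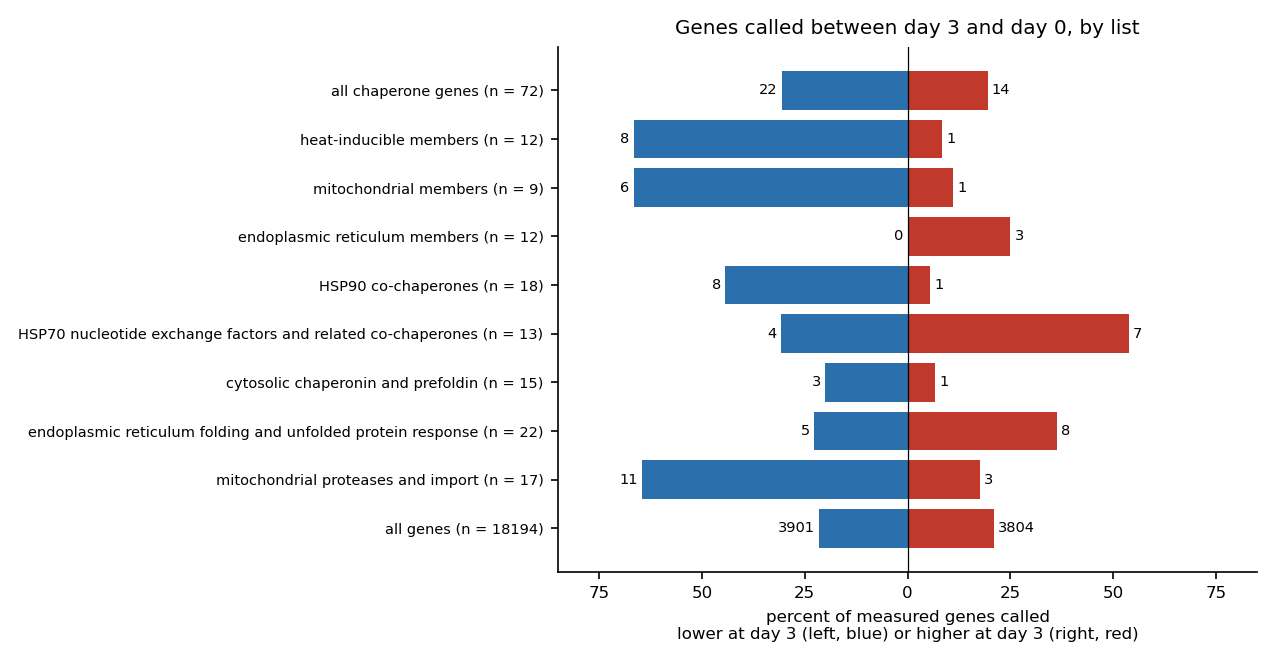
Percent of the measured genes of each list that were called lower (left, blue) or higher (right, red) at day 3, with the counts at the bar ends and all 18194 genes in the lowest row. Heat-inducible members, mitochondrial members and mitochondrial protease and import genes have the longest blue bars, and exchange factors of HSP70 the longest red bar.

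Promoter windows of 300 bases, 250 before and 50 after a start site, were found for 59 of the 72 members. The two-unit heat shock element occurred in the windows of 16 of these 59 genes (27.1%), against 17% of all 27025 genes with a window. A three-unit element, GAANNTTC followed by NNGAA or TTCNNGAA followed by NNTTC, which contains both two-unit forms, occurred in 4 of the 59 genes (6.78%), against 0.662% of all genes. Both strands are covered, since each two-unit form is its own reverse complement. These 4 were Hspd1, Hspe1, Hsph1 and Dnajb6, and all 4 were called lower at day 3, beside 21.4% of all genes. All 4 lay above the median gene's level, where 33.7% of all genes were called lower. Hspd1 and Hspe1 lost the call with either day 3 array left out, and also in the fit with no intensity trend, which leaves 2 of 4. Of the 12 genes with the two-unit element only, 5 were called lower, 1 higher (Dnajc10) and 6 were not called. Over all genes 21.4% were called lower and 20.9% higher. Of these 12 genes 7 lay above the median gene's level, where 33.7% of all genes were called lower. The 5 were Hspb1, Hspa1b, Hspa1a, Hspb8 and Dnajb4, and in Hspb8, as for the three-unit element of Hsph1, the match began after the start site.

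Put the other way, the element was present in 9 of 18 members called lower, 1 of 11 called higher and 6 of 30 not called that had a window. It was present in 17% of all genes with a window. Its share among all genes called lower, called higher or not called was not counted. Of the 16 genes with the element 6 were called lower without day 3 replicate 1 and 6 without day 3 replicate 2, against 9 with all arrays. No test of this difference was made, and Hspa1a with Hspa1b and Hspd1 with Hspe1 are pairs that share promoter sequence. In the promoter shown for Hspb1 the elements GAAGTTTC and GAACCTTC began 117 and 97 bases before the start site, and in that of Hspa1b the element GAAGATTC began 104 bases before it. Hspd1 and Hspe1 are transcribed away from each other on chromosome 1, and 1 window of Hspd1 overlapped that of Hspe1 by 285 bases. The same joined elements lie before the start sites of these windows. Another window of Hspd1 overlapped that of Hspe1 by 4 bases and held no heat shock element. The differences of the genes were -0.17 and -0.15.

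The ER stress response element was found in 3 of 59 members (5.08%), against 0.137% of all genes with a window. These were Hsp90b1, with 2 matches that began 212 and 107 bases before the start site, Dnajc3 with 1 match 105 bases before it and Hspa5 with 1 match 65 bases before it. All 3 encode chaperones of the ER lumen, and 2 of them were called higher while Hspa5 was not called. A match describes letters only. A window without a match says nothing of a factor, and the 13 members without a window were not searched.

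**Figure D5:**
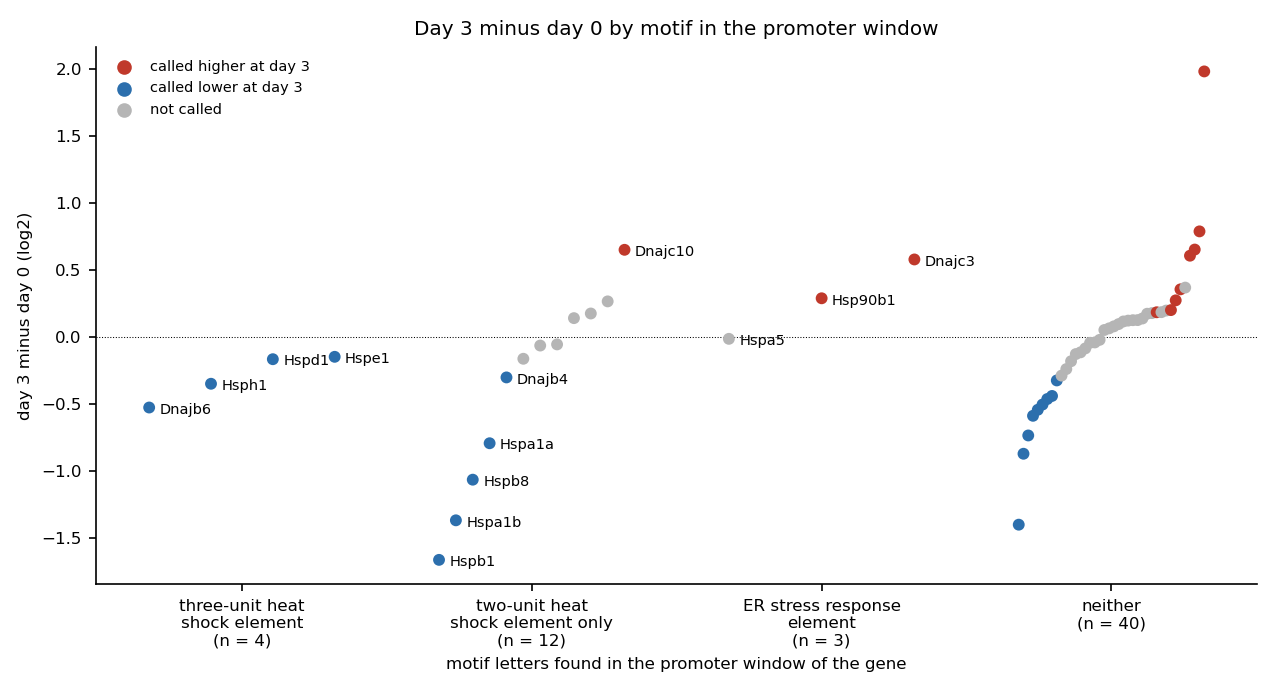
Log2 difference, day 3 minus day 0 (y axis), of the 59 genes with a promoter window, grouped by the motif letters found there. Red points were called higher, blue points lower and grey points not called. The 4 genes with a three-unit heat shock element were called lower, 2 of them (Hspd1 and Hspe1) not when one day 3 array was left out, and Dnajc10 was the one gene with a two-unit element that was called higher.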

How the data were processed

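Gene expression was measured on 4 arrays, 2 of day 3 and 2 of day 0. The authors deposited log2 values per probe set, made with RMA in R 2.13.0, per the submitters' processing notes. Further settings are not given in the sources used here. RMA gives the arrays like distributions, so a change in total RNA per cell cannot be seen, and it compresses dim differences. The number of arrays limits the precision. Of 45101 probe sets 34958 had 1 gene symbol in the platform annotation, 932 several and 9211 none. Where a gene had several probe sets, the one brightest on average was kept, which gave 18194 genes. Levels of different probe sets were not compared.

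Differences, day 3 minus day 0, were fitted with limma 3.58.1 in R 4.3.3 (lmFit, eBayes with an intensity trend, Benjamini-Hochberg over all genes, called at an adjusted p under 0.05). The variance of each gene was moderated toward that of genes of like signal, with 8.017 prior and 2 residual degrees of freedom. SE and p-values come from that moderated variance. Probe sets were compared in a second fit over all 34958. The code was tested on simulated data. Members and lists were chosen with earlier results of these data known. Values on every array were given for members called with a difference of at least 0.5, for the 2 members of each family with the largest difference where fewer reached it, and for Trap1 and Hsf2. Of each partner list the 3 called genes with the largest difference were named, with Hyou1. Array values of Hspb2, Hspa4, Hspa5, Hspa8, Hspa9, Hsph1, Dnaja1 and Dnajb1 were added after they were seen. All 72 members matched a RefSeq table of GRCm38.p6, the build of the promoters.

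The alternatives left out the intensity trend, averaged the probe sets of each gene, dropped probe sets with IDs in _x_at or _s_at, kept bright genes only, repeated the quantile normalization, centred on medians, took the replicate number as a block or left out 1 array. The fit over all probe sets and the sums without Vim, Sycp3 or Hspb1 were chosen after seeing the data.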

Additional observations from a re-analysis of the deposited data

How the results depend on the processing

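The arrays gave log2 signal with no detection call, so signal over background limits the 10 members below the arrays' median on all arrays, 1 of which was called. Of 36 called members, 24 kept call and direction in every alternative that tested them, and 17 of the 19 with a difference of at least 0.5 did, the others being Dnajb13 and Dnajb3. Of the values of the 45 named genes under alternatives, 459 stayed on their side of the threshold, 29 lost the call and 0 turned round. Those 29 belong to 8 genes, namely Dnajb13, Dnajb3, Hsbp1, Hsf2, Hsp90aa1, Hspd1, Hspe1 and Trap1.

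With the replicate block 14 members were called higher and 22 lower, as without it, and 7661 of all genes were called, against 7705. The numbers of the labels were not stated to pair samples, and the correlation across genes of same-numbered deviations was -0.0167. The block changed no call of a named gene.

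With 1 array left out, 9 to 14 members were called higher and 16 to 20 lower, with the fewest in both cases without day 3 replicate 2, and 5845 to 7442 of all genes were called, fewer samples being tested. The median difference of the members was -0.055 to -0.015, the value nearest 0 without day 3 replicate 1. It was -0.087 from the mean of probe sets and -0.087 in bright genes. By family, leaving out 1 array gave 0 to 1 lower HSP90 genes (0 without day 3 replicate 2 or day 0 replicate 2), 0 to 1 lower chaperonin genes (0 with either day 3 array left out), 0 to 1 higher small heat shock protein genes (0 without day 3 replicate 2), 0 to 1 higher DNAJA genes and 0 to 1 higher DNAJB genes (0 except without day 0 replicate 2), and 1 to 3 lower DNAJB genes (1 without day 3 replicate 2 or day 0 replicate 1). Of 86 partner genes 11 to 18 were higher and 17 to 27 lower, against 20 and 31 with all arrays, with the fewest higher without day 3 replicate 2 and the fewest lower without day 3 replicate 1 (20 lower without day 3 replicate 2).

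Without the intensity trend 0 HSP90 and 0 chaperonin genes were lower, 0 DNAJA genes were higher, and 12 partner genes were higher and 19 lower. From the mean of probe sets 2 small heat shock protein genes were higher, 0 DNAJA genes were higher and 2 lower, 2 genes of the pattern only were lower, and 10 partner genes were higher. Without probe sets that can match several transcripts 0 DNAJA genes were higher. In bright genes alone, where 50 members were tested, 0 HSP70, 0 small heat shock protein and 0 DNAJB genes were higher and 2 genes of the pattern only were lower. Apart from fewer genes or samples, the cause was not tested.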
